A study of Mus musculus with 16 samples.

Results

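The genes described here are 8 that macrophages use to bind and engulf dying cells: the receptor tyrosine kinases *Mertk*, *Axl* and *Tyro3* (the TAM receptors), the bridging proteins *Gas6*, *Pros1* and *Mfge8*, the receptor *Lrp1* and the adaptor *Gulp1*. They were chosen by name from the 48432 genes of the expression table, and all 8 were found in it. RNA was sequenced from thioglycolate-elicited peritoneal macrophages (PM) loaded with oxidized LDL (oxLDL) at 50 μg/ml for 48 h, which makes them foam cells. PM were taken 5 days after 3% thioglycolate, and there were 16 samples, 4 in each of 4 groups. LDAH is the lipid droplet-associated hydrolase, and the design compares PM with more or less of it. In LDAH-Tg PM (labelled LDAH overexpression) a transgene is driven by the *Csf1r* promoter with its intronic FIRE enhancer, which acts in macrophages and granulocytes. Their WT controls carry the label LDAH ApoE control. In LDAH-KO PM (LDAH KO) an expression-selection cassette replaces the first coding exons of *Ldah* in every cell of the mouse, and their WT controls are labelled LDAH WT. All groups are labelled C57BL/6J. Transgenic founders were made in B6D2F1 and backcrossed, while the knockout was made directly in C57BL/6. The paper bred both lines onto *Apoe*-/-, but whether the mice that gave these PM were *Apoe*-/- was not given in the sources used here, nor were their age and sex.

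The table holds 1 value per gene and group, the authors' mean over the samples of that group, in TPM, the share of all transcripts after division by transcript length, scaled to a total of 1000000. The values of single samples were not analysed here. So no spread between replicates, standard deviation, depth or p-value can be given, and no difference below was tested against replicate error. A log2 ratio is the difference of log2(mean TPM + 0.5) between a group and its controls, and "compared genes" are those with a mean of at least 1 TPM over both groups and no group at 0. A factor of 1.5 is used as a mark of size and is not a test.

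*Ldah* itself was at 28.5 TPM in the WT controls of LDAH-Tg and 124 in LDAH-Tg (log2 ratio 2.10). It was at 44.5 TPM in the WT controls of LDAH-KO and 27.9 in LDAH-KO (-0.67). With 1 value per gene, reads from the replaced part cannot be told from those of the rest of the gene. *Apoe* was at 7947 to 10404 TPM in the 4 groups. Macrophage markers were abundant in every group, with *Cd68* at 3023 to 4959 TPM, *Csf1r* at 94.2 to 108, *Mrc1* at 106 to 158 and *Itgam* at 110 to 273 TPM. *Adgre1*, which encodes F4/80 and was picked out after its values were seen, was at 33.1 and 22.4 TPM in the WT controls of LDAH-Tg and in LDAH-Tg against 146 and 147 in the other line. The 6 markers of resident peritoneal macrophages summed to 59.9 TPM in the WT controls of LDAH-Tg, 45.2 in LDAH-Tg, 94.3 in the WT controls of LDAH-KO and 102 in LDAH-KO. *Lyz1* (24.2 to 66.2 TPM) and *Fcna* (13.8 to 27.8 TPM) carried most of this sum, with *Icam2* at 4.52 to 6.13 and *Gata6* at 1.11 to 2.07 TPM. *Timd4* (0.0462 to 0.133 TPM) and *Selp* (0.240 to 0.405 TPM), added after their values were seen, were lower still. Summed T cell, B cell, mast cell and dendritic cell markers were each under 1 TPM in every group. The neutrophil sum of 63.8 to 107 TPM came almost wholly from *S100a8*, since *S100a9* was at 0 to 0.740 TPM and *Ly6g* was listed at 0 in all groups. The eosinophil sum of 2.62 to 4.45 TPM came almost wholly from *Siglecf*, with *Epx* at 0 in all groups. Fibroblast and mesothelial markers differed with the knockout and are given beside that comparison. Some zeros may be failed estimates: 25 genes at 100 TPM or more in one group were listed at 0 in another, and none of the 8 genes described here was listed at 0. This count leaves out genes at 0 in all groups, such as *Ly6g* and *Lgals3*, a bridging molecule named after its values were seen. Whether such zeros are real was not tested.

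Efferocytosis is the clearance of apoptotic cells by phagocytes. A dying cell exposes phosphatidylserine, which bridging proteins tie to receptors on the macrophage: GAS6 and protein S (the product of *Pros1*) bind TAM receptors, and MFG-E8 binds alpha-v integrins. LRP1 recognises calreticulin on the target and can signal through the adaptor GULP1. In atheroma, poor clearance of dying foam cells is known to feed the necrotic core. *Mertk* is a known target of the liver X receptors (LXR), the nuclear receptors that sense oxysterols, which is why oxysterol-handling genes are of interest beside it.

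By position on GRCm38 (GENCODE M21), *Mertk* (ENSMUSG00000014361.5) lies at chr2:128698956-128802894 on the plus strand. *Axl* (ENSMUSG00000002602.16) lies at chr7:25757273-25788705 and *Mfge8* (ENSMUSG00000030605.15) at chr7:79133768-79149060, both on the minus strand. *Tyro3* (ENSMUSG00000027298.17) lies at chr2:119797733-119818104, plus strand. These genes sit on 6 chromosomes and so do not form a cluster, since *Gas6* (ENSMUSG00000031451.6) is at chr8:13465374-13494490 (minus), *Pros1* (ENSMUSG00000022912.8) at chr16:62854307-62929346 (plus), *Lrp1* (ENSMUSG00000040249.15) at chr10:127538161-127621148 (minus) and *Gulp1* (ENSMUSG00000056870.9) at chr1:44551511-44796838 (plus). Values are sums over each gene. How overlapping genes were counted, and whether strand was used, was not given in the sources used here. The antisense gene *Gm16217* over *Lrp1* was at 0.0346 to 0.277 TPM, far below *Lrp1*, and the genes that overlap *Mertk*, *Gas6* and *Gulp1* were listed at 0 in all groups.

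The promoters of *Mertk*, *Mfge8* and *Lrp1* are printed because, of the 6 members with at least 1 TPM, these had the lowest ratios in LDAH-KO PM. Each runs 5′ to 3′ along the gene's strand from 250 bases before to 50 after the RefSeq start (GRCm38.p6), at chr2:128698665-128698964 (plus), chr7:79149011-79149310 (minus) and chr10:127621099-127621398 (minus) respectively. Capitals mark the SP1 box GGGCGG on either strand, so that CCGCCC is the same box on the other one.
Mertk promoter: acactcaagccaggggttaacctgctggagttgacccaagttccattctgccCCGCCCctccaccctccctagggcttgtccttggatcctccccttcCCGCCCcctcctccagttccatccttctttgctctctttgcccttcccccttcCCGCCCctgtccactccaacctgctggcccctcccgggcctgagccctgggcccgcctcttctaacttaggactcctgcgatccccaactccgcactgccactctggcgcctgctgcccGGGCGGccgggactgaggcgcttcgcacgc
Mfge8 promoter: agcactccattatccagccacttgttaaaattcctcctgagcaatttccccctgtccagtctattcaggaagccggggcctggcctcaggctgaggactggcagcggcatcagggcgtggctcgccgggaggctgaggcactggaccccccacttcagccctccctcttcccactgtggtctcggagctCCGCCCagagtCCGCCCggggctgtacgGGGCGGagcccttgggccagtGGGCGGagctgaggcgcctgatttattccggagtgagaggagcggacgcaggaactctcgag
Lrp1 promoter: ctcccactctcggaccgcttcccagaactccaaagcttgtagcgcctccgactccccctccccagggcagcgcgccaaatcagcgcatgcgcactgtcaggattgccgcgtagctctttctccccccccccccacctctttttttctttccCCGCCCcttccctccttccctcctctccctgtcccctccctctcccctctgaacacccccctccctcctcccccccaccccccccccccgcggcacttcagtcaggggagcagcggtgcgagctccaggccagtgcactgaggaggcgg

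All 8 promoters matched a RefSeq entry, and all 8 held at least 1 SP1 box, which 35.7% of 32851 mouse promoters of the same length hold. There were 4 boxes in *Mertk*, *Gas6* and *Mfge8*, 6 partly overlapping ones in *Tyro3*, 5 in *Pros1*, 2 in *Axl*, and 1 each in *Lrp1* and *Gulp1*. The GC content of the 8 windows ran from 57.7% to 73.3%, against a median of 52.7% over all promoters. None of the 8 windows held AGGTCA, the half-site of LXR and other nuclear receptors (16.3% of all promoters), its direct repeat DR4 (0.0152%), the PU.1 core GAGGAAGT (3.20%), the AP-1 site TGANTCA (7.81%) or TATAAA (13.6%), each searched on both strands. A match describes letters in this window and is not a binding site, and a missing match says nothing of more distant elements.

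Among the genes described here, *Mfge8*, *Lrp1* and *Mertk* had the highest levels in foam cell PM of all 4 groups. The order *Mfge8*, *Lrp1*, *Mertk*, *Gas6*, *Pros1*, *Axl* was the same in every group. *Tyro3* and *Gulp1* came last, with *Tyro3* above *Gulp1* in the LDAH-Tg line and below it in the LDAH-KO line. Whether neighbours in this order differ beyond the spread of samples could not be seen.

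**Figure D1:**
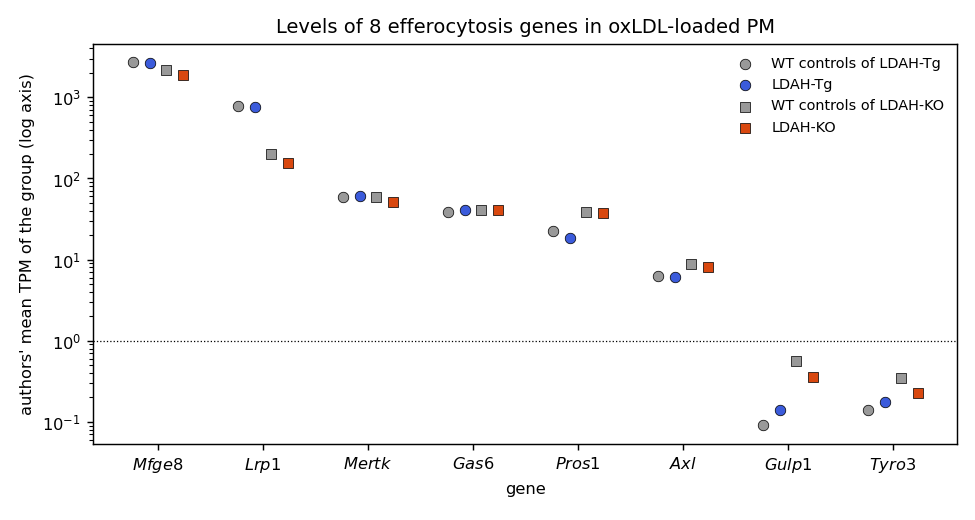
Mean TPM of the 8 genes (x axis) in the 4 groups (y axis, log scale), 1 point per group, with no error bars because only group means were analysed; the dotted line marks 1 TPM. *Mfge8* leads at 1880 to 2715 TPM, *Lrp1* is at 750 and 789 TPM in one line and at 157 and 201 in the other, and *Tyro3* and *Gulp1* stay under 1 TPM.

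Among the TAM receptors, *Mertk*, the one best known for clearance of dying cells by macrophages, was at 58.8 TPM in the WT controls of LDAH-Tg, 60.0 in LDAH-Tg, 59.3 in the WT controls of LDAH-KO and 50.7 in LDAH-KO. The other three lay close together, and LDAH-KO was the lowest. *Axl*, the TAM receptor usually linked to inflamed tissue, was at 6.28, 6.13, 8.92 and 8.13 TPM in the same order of groups. *Tyro3*, best known from the nervous system, was at 0.139, 0.177, 0.349 and 0.225 TPM, too low for its ratios to be used. *Mertk* thus made up 85.8% to 90.5% of the summed TAM receptor level, *Axl* 9.24% to 13.8% and *Tyro3* 0.213% to 0.509%. The *Axl* share was higher in the LDAH-KO line (13.0% and 13.8%) than in the LDAH-Tg line (9.63% and 9.24%), and it moved little with the genotype within a line.

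Of the bridging proteins, *Mfge8* was at 2715 TPM in the WT controls of LDAH-Tg, 2616 in LDAH-Tg, 2203 in the WT controls of LDAH-KO and 1880 in LDAH-KO. It was the most abundant of the 8 genes and ranked 49, 53, 50 and 67 among all genes of the respective groups. *Gas6*, the ligand of all TAM receptors, was at 38.5, 41.1, 41.2 and 41.1 TPM, close to flat over the groups. *Pros1*, which encodes the anticoagulant protein S and ligand of MERTK and TYRO3, was at 22.2, 18.3, 38.7 and 37.2 TPM, a larger gap between the lines than between genotypes within a line. *Mfge8* made up 96.0% to 97.8% of the summed level of the 3 bridging genes. *Gas6* was 1.74 and 2.24 times the level of *Pros1* in the WT controls of LDAH-Tg and in LDAH-Tg, and 1.07 and 1.10 times in the LDAH-KO line.

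*Lrp1*, a very large endocytic receptor of the LDL receptor family, was at 789 TPM in the WT controls of LDAH-Tg, 750 in LDAH-Tg, 201 in the WT controls of LDAH-KO and 157 in LDAH-KO. The groups of one line lay far above those of the other. *Gulp1*, the adaptor that binds its tail, was at 0.0903, 0.140, 0.569 and 0.356 TPM. The receptor was among the abundant transcripts in PM whose *Gulp1* transcript stayed under 1 TPM.

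In LDAH-Tg PM the 6 genes that could be compared were close to their controls. None of the 6 passed a factor of 1.5, which 1.95% of the 11395 compared genes did. 2 of the 6 were higher and 4 lower than in the controls, while 49.5% of all compared genes were lower. Their median log2 ratio was -0.04, beside 0.002 over all compared genes, for which 90% of ratios lay between the 5th percentile of -0.32 and the 95th of 0.38.

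The largest of the 6 ratios was that of *Pros1*, from 22.2 TPM in the controls to 18.3 in LDAH-Tg PM (log2 ratio -0.27). Of all compared genes, 8.12% had a lower ratio. *Gas6*, its partner as a TAM ligand, went the other way in these means, with a log2 ratio of 0.09. The receptors *Mertk* (0.03) and *Axl* (-0.03) were nearly at the same level as in the controls, and 11.5% and 14.4% of compared genes lay closer to the median ratio. *Mfge8* (-0.05) and *Lrp1* (-0.07) were likewise within the middle of the distribution, with 23.1% and 30.3% of genes closer to the median. *Tyro3* and *Gulp1* were under 0.2 TPM in both groups and were not compared.

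**Figure D2:**
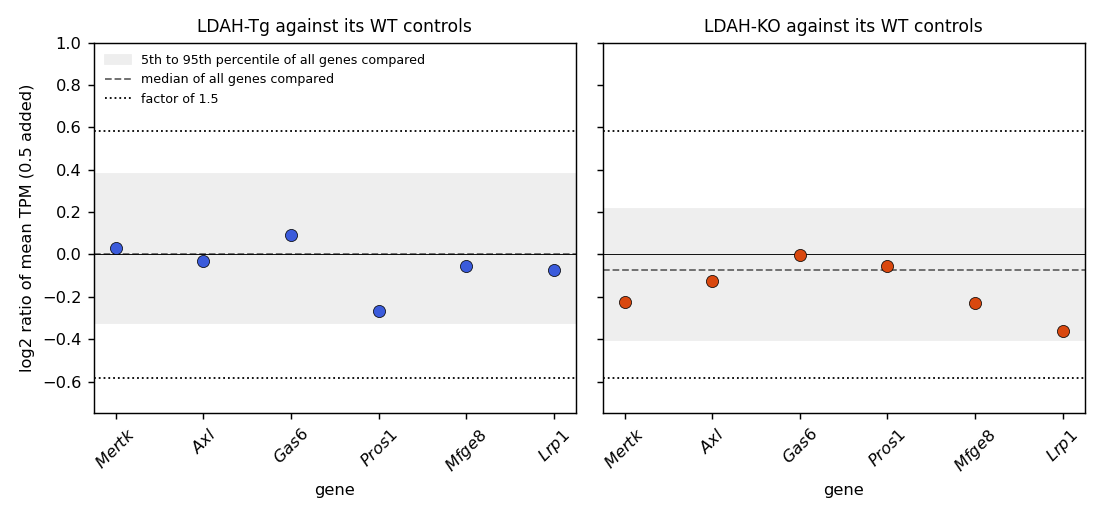
Log2 ratios (y axis) of the 6 compared genes (x axis) in LDAH-Tg (left) and LDAH-KO PM (right), each against its own WT controls; the grey band spans the 5th to 95th percentile and the dashed line the median of all compared genes, and dotted lines mark a factor of 1.5. All points lie inside the grey bands, *Pros1* is lowest at -0.27 on the left, and *Lrp1* at -0.36, *Mfge8* at -0.23 and *Mertk* at -0.23 are lowest on the right.

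In LDAH-KO PM the means of *Lrp1*, *Mfge8* and *Mertk* were the lowest relative to WT, and those of *Gas6* and *Pros1* were near it. None of the 6 genes passed a factor of 1.5, which 2.22% of the 11289 compared genes did. All 6 ratios were below 0, from -0.004 to -0.36 with a median of -0.18. Since 66.6% of all compared genes had a lower mean here and the median of all was -0.075, a sign below 0 was common in this comparison. In bulk PM, fewer cells of a type and less RNA per cell cannot be told apart.

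*Lrp1* had the lowest ratio, from 201 TPM in the WT controls to 157 in LDAH-KO PM (log2 ratio -0.36). It was the only one of the 6 with a log2 ratio below -0.32, as had 9.85% of all compared genes, and 6.97% of compared genes had a lower ratio. *Mfge8* went from 2203 to 1880 TPM (-0.23) and *Mertk* from 59.3 to 50.7 TPM (-0.23), with 19.8% and 20.3% of genes lower. The receptor *Axl* was at 8.92 and 8.13 TPM (-0.13). *Pros1* (-0.06) and *Gas6* (-0.004), the protein ligands of the TAM receptors, were above or near the median of all genes. The sum of the TAM receptors was 68.6 TPM in the WT controls and 59.0 in LDAH-KO PM, and that of the bridging genes was 2283 and 1958 TPM, so both sums followed their main member.

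The ratio between LDAH-KO PM and their WT controls depended on transcript length over all genes, which bears on these values. With the longest coding transcript of GENCODE M21 as the length, known for 92.4% of the compared genes, the median log2 ratio was 0.06 for 2706 genes of up to 2000 bases and -0.07 for 4259 genes of 2000 to 4000 bases. It was -0.17 from 4000 to 6000 bases, -0.24 from 6000 to 8000, -0.30 from 8000 to 10000, and -0.35 for the 215 genes over 10000 bases. No such slope was seen in LDAH-Tg PM, where the medians of the same classes lay between -0.01 and 0.01. What lies behind the slope was not tested.

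**Figure D3:**
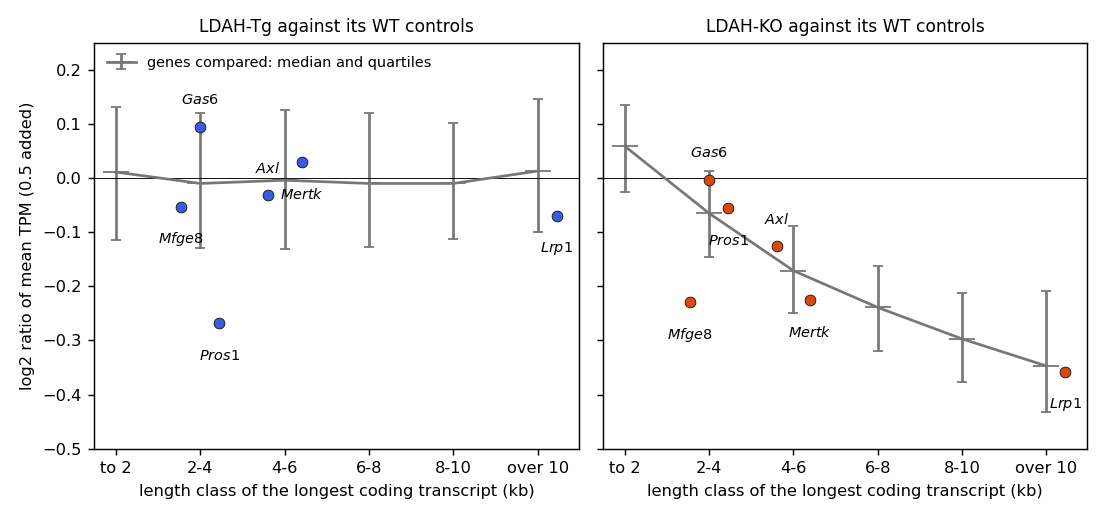
Log2 ratio (y axis) by length class of the longest coding transcript in kb (x axis) in LDAH-Tg (left) and LDAH-KO PM (right), each against its WT controls; grey lines join the medians of all compared genes with bars for the quartiles, and coloured points are the 6 genes in their class, set side by side within it. On the right the medians go from 0.06 to -0.35 with length and *Lrp1* (-0.36) lies at that of its class, while *Mfge8* (-0.23) lies below the lower quartile of -0.15 for its class.

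Each gene was therefore also set beside the 500 compared genes nearest to it in length. *Lrp1*, with a transcript of 14888 bases, had a ratio of -0.36 where these genes had a median of -0.32 and quartiles of -0.40 and -0.21. It was thus at the level of other long genes, 35.0% of which had lower ratios. *Mertk* (4302 bases, -0.23) was just below the lower quartile of -0.22 of its neighbours in length, whose median was -0.14, and 23.6% of them were lower. *Axl* (4265 bases), *Pros1* (3303 bases) and *Gas6* (2548 bases) lay slightly above the medians of their neighbours, by 0.02, 0.03 and 0.03. *Mfge8* differed from these: at 2125 bases, its neighbours had a median of -0.01 and quartiles of -0.09 and 0.05, and 6.80% of them had a ratio lower than its -0.23. After the median of the neighbours was subtracted, the ratios were -0.04 for *Lrp1*, -0.08 for *Mertk* and -0.21 for *Mfge8*, and the median over the 6 genes was -0.01 in place of -0.18. In LDAH-Tg PM the same step left *Pros1* at -0.26, with 7.60% of its neighbours lower.

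Markers of stromal cells also differed between LDAH-KO PM and their WT controls. The 6 fibroblast markers summed to 38.5 TPM in the WT controls and 18.7 in LDAH-KO PM, and the 5 that could be compared all passed a factor of 1.5 downwards (median of -1.17). Of all compared genes, 1.83% were lower by that factor. *Col1a2* was at 6.34 and 2.40 TPM and *Dcn* at 19.8 and 11.6 TPM. Subtracting the median of genes of like length left a median of -0.94 for this list. The 6 mesothelial markers summed to 8.42 and 4.63 TPM. In the LDAH-Tg comparison the fibroblast sums were 30.0 in the controls and 31.9 TPM in LDAH-Tg PM, but 4 of the 5 compared markers were higher, with a median of 0.19. Of all genes compared there, 49.5% were lower. *Col1a1*, added after its values were seen, was at 3.26 and 5.44 TPM (0.66) and passed a factor of 1.5 there. *Col3a1* (0.04) and *Pdgfra* (0.19) did not, and *Dcn*, the most abundant of the list, was at 12.8 and 10.8 TPM (-0.23). The paper reports *Col1a1* and *Col1a2* as macrophage genes, by qPCR higher in LDAH-Tg PM and lower in LDAH-KO PM. It also reports more pro-collagen I alpha in LDAH-Tg macrophages grown from bone marrow. There *Col1a1* was higher too, which LXR alpha knockdown hindered. A synthetic LXR agonist rescued *Col1a1* in LDAH-KO PM. Both *Col1a1* and *Col1a2* were higher in LDAH-Tg macrophages captured by laser from lesions. The paper's own RNA-seq tests called *Col1a1* in both comparisons, up in LDAH-Tg and down in LDAH-KO PM. In the means used here, expression in macrophages and in stromal cells carried over cannot be told apart. The part of stromal cells in the ratios of *Lrp1*, *Mertk* and *Mfge8* was not tested.

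The 2 control groups differed more from each other than either genotype did from its own controls. They were no littermates, so this comparison shows the line and everything that went with it, which cannot be told apart. 2 of the 6 genes passed a factor of 1.5, which 38.6% of the 11404 compared genes did. Over all compared genes the median log2 ratio of the WT controls of LDAH-Tg over those of LDAH-KO was -0.175, with a 5th percentile of -1.27 and a 95th of 0.98. *Lrp1* stood out at 789 against 201 TPM, a log2 ratio of 1.97 and 2.16 after that median was set to 0, and 99.5% of compared genes had a lower ratio. *Pros1* was at 22.2 against 38.7 TPM (-0.79), and at -0.61 after the same step. *Axl* (-0.48) and *Mfge8* (0.30) kept their sign at -0.30 and 0.49, although *Mfge8* was at 0.03 under quantile normalization, while *Mertk* (-0.01) and *Gas6* (-0.10) changed sign, to 0.17 and 0.09.

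The direction of *Lrp1* ran against its length. Genes over 10000 bases were mostly lower in the WT controls of LDAH-Tg, with a median log2 ratio of -0.42, and of 111 such genes at 10 TPM or more, 29 were higher there. Only 2 of the 111, *Lrp1* among them, reached its ratio of 1.97. Relative to the 500 genes nearest in length *Lrp1* was higher by 2.46 on the log2 scale. *Mfge8* was 3.44 and 3.49 times the level of *Lrp1* in the WT controls of LDAH-Tg and in LDAH-Tg, but 11.0 and 12.0 times in the LDAH-KO line. *Lrp1* was likewise 13.4 and 12.5 times the level of *Mertk* in one line and 3.39 and 3.09 times in the other.

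Likeness to each gene was measured as the Euclidean distance between log2 levels in the 4 groups, centred per gene, over 7250 other protein-coding genes with at least 10 TPM on average (7251 for *Axl*). With 4 points per gene many patterns are alike. Within a distance of 0.25 there were 1553 genes for *Gas6*, 1544 for *Axl*, 1088 for *Mertk*, 931 for *Pros1* and 647 for *Mfge8*, but 3 for *Lrp1*. Nearest to *Lrp1* were *Ubr4* (distance 0.089), *Rrbp1* (0.147) and *Wdfy1* (0.183). *Ubr4* was at 88.0, 87.7, 23.8 and 18.5 TPM in the WT controls of LDAH-Tg, LDAH-Tg, the WT controls of LDAH-KO and LDAH-KO, and its longest coding transcript has 15928 bases. Nearest to *Mertk* were *Clasp1*, *P3h1* and *Mad1l1* (0.028 to 0.031), to *Axl* *Rab43*, *Gorasp2* and *Rab7* (0.012 to 0.028), and to *Gas6* *Ilf2*, *Nosip* and *Lace1* (0.021 to 0.024). Nearest to *Pros1* were *Ptpra*, *Dnaja2* and *Mospd1* (0.012 to 0.034), and to *Mfge8* *Gaa*, *Ticam1* and *Dhcr7* (0.007 to 0.039).

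The other genes of efferocytosis, in 9 lists that hold 86 genes, held few large ratios in either comparison. Of the 75 that could be compared in LDAH-Tg PM, 2 were lower by more than a factor of 1.5 and none higher, 29 were above and 46 below their controls, and the median log2 ratio was -0.06. In LDAH-KO PM 2 of 75 were lower by that factor and none higher, 17 were above and 58 below, and the median was -0.10. Over all compared genes 1.95% and 2.22% passed this factor. Of these, 49.5% were lower in LDAH-Tg PM and 66.6% in LDAH-KO PM by any size, taken over all compared genes. Their median log2 ratios were 0.002 and -0.075.

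Among the other receptors for dying cells, 11 of 16 could be compared in each genotype, with medians of -0.06 in both. For LDAH-KO it was 0.01 after the median of genes of like length was subtracted. *Cd36*, the scavenger receptor for oxLDL and thrombospondin, was at 3276 TPM in the controls and 2113 in LDAH-Tg PM (-0.63), but it was listed at 0 in both groups of the LDAH-KO line, so its estimate is uncertain. The MFG-E8 receptor subunit *Itgav* was at 41.1 and 54.4 TPM in the LDAH-Tg comparison (0.40) and 36.4 and 30.9 in that of LDAH-KO (-0.23). Its partner *Itgb3* was at 60.0 TPM in WT and 43.4 in LDAH-KO PM (-0.46), while the alternative partner *Itgb5*, added for its role after its values were seen, was at 94.1 and 95.6 TPM (0.02). The inhibitory phosphatidylserine receptor *Cd300a* was at 188 and 156 TPM in the LDAH-Tg comparison (-0.27).

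Among other bridging molecules and ligands, 7 of 9 could be compared, and the medians were -0.16 for LDAH-Tg and 0.16 for LDAH-KO. *Calr*, which encodes the LRP1 ligand calreticulin, was at 2351 TPM in the controls and 1796 in LDAH-Tg PM (-0.39), and at 1866 and 1613 in the LDAH-KO comparison (-0.21). The complement opsonin chains *C1qb* (386 and 461 TPM) and *C1qc* (239 and 282 TPM) were higher in LDAH-KO PM, with log2 ratios of 0.26 and 0.23. *Thbs1*, thrombospondin that bridges dying cells to CD36, was at 7.26 and 4.53 TPM (-0.63) and passed a factor of 1.5. Subtracting the median of genes of like length left the list at 0.09 in LDAH-KO PM.

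The engulfment signalling list, of factors that turn on RAC at the phagocytic cup, held 12 compared genes. In LDAH-KO PM 11 of them were below WT, as were 66.6% of all compared genes. The list median was -0.18, which was -0.03 after the median of genes of like length was subtracted. *Trio*, a RAC and RHOG exchange factor, was at 11.0 and 7.91 TPM (-0.45). In LDAH-Tg PM 5 were above and 7 below with a median of -0.05, among them *Mapk7* (32.9 and 40.1 TPM, 0.28), *Crkl* (5.20 and 4.20 TPM, -0.28) and *Rac1* (214 and 179 TPM, -0.26). In the phagosome maturation list of 12 genes the medians were -0.06 for LDAH-Tg and -0.07 for LDAH-KO. Subtracting the median of genes of like length left the latter at 0.01. *Rab5a*, the GTPase of early phagosomes, was at 41.4 and 27.3 TPM in the LDAH-Tg comparison (-0.59), the other gene that passed a factor of 1.5 there.

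**Figure D4:**
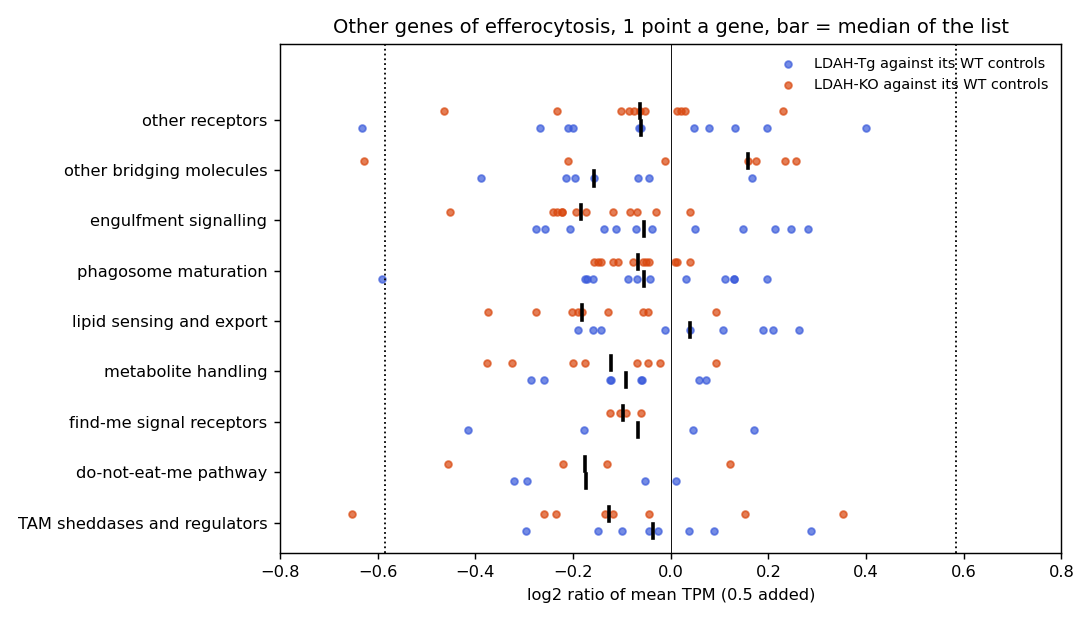
Log2 ratios (x axis) of the compared genes of 9 lists of efferocytosis genes (y axis), 1 point per gene, for LDAH-Tg (blue) and LDAH-KO PM (orange) against their WT controls; black bars are list medians and dotted lines mark a factor of 1.5. Beyond that factor lie *Cd36* and *Rab5a* in LDAH-Tg PM and *Thbs1* and *Timp3* in LDAH-KO PM, and list medians lie between -0.18 and 0.16.

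Oxysterol sensing and cholesterol export follow the uptake of a dying cell. Of 9 such genes, 8 were below WT in LDAH-KO PM, as were 66.6% of all compared genes. The list median was -0.18, which was -0.02 after the median of genes of like length was subtracted. The exporter *Abca1* was at 82.2 and 63.3 TPM (-0.37) and the nuclear receptor *Ppard* at 22.5 and 18.5 TPM (-0.27). In LDAH-Tg PM the median was 0.04, with *Abca1* at 76.5 and 69.3 TPM (-0.14) and *Nr1h2*, which encodes LXR beta, at 83.2 and 96.3 TPM (0.21). *Abcg1*, added after its values were seen, was at 251 and 220 TPM there (-0.19), and at 217 and 191 in the knockout comparison (-0.18). By qPCR the paper found both exporter genes raised by the transgene in PM and reduced by the knockout. It also reports higher ABCA1 protein in macrophages from bone marrow, and more *Abca1* in lesion macrophages of transgenic mice. Its RNA-seq tests did not pick out either gene. Here both means were below the controls in either genotype. *Nr1h3*, which encodes LXR alpha and was added for its role after its values were seen, was at 65.0, 66.9, 65.3 and 69.7 TPM in the WT controls of LDAH-Tg, LDAH-Tg, the WT controls of LDAH-KO and LDAH-KO. Genes that handle the metabolites of the cargo (8 compared) had medians of -0.09 for LDAH-Tg and -0.12 for LDAH-KO. The LDAH-KO median was 0.01 after the median of genes of like length was subtracted. Against WT, the cystine transporter *Slc7a11* was at 15.8 and 12.0 TPM (-0.38) and the kinase *Sgk1* at 771 and 616 TPM (-0.32) in the LDAH-KO comparison.

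Proteases that release the MERTK ectodomain, and other regulators of the TAM receptors, made a list of 9 genes with 8 compared. The median of this list was -0.04 for LDAH-Tg and -0.13 for LDAH-KO. The LDAH-KO value was -0.01 after the median of genes of like length was subtracted. *Timp3*, the inhibitor of ADAM17, was at 2.17 TPM in WT and 1.20 in LDAH-KO PM (-0.65) and passed a factor of 1.5 at a low level. The sheddase *Adam10* was at 43.9 and 35.7 TPM in the LDAH-Tg comparison (-0.30) and 87.9 and 74.6 in that of LDAH-KO (-0.23). *Adam17*, the main sheddase of MERTK, added for its role after its values were seen, was at 39.4 and 36.7 TPM (-0.10) and at 70.5 and 64.9 (-0.12). The cytokine signalling inhibitor *Socs1*, a TAM-induced gene, was at 1.83 and 2.47 TPM in the LDAH-KO comparison (0.35).

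Receptors for find-me signals (4 compared genes) had medians of -0.07 for LDAH-Tg and -0.10 for LDAH-KO. Subtracting the median of genes of like length left the latter at -0.06. The sphingosine-1-phosphate receptor *S1pr1* was at 9.68 and 7.14 TPM in the LDAH-Tg comparison (-0.41). In the do-not-eat-me pathway, by which living cells are spared, the 4 compared genes had medians of -0.17 for LDAH-Tg and -0.18 for LDAH-KO. The LDAH-KO median was -0.09 after the same step. *Cd24a* was lower in both comparisons, at 25.2 and 20.1 TPM (-0.32) and at 36.4 and 26.4 TPM (-0.46). *Cd47*, the signal read by SIRPA, was at 179 and 146 TPM in the LDAH-Tg comparison (-0.29) and at 151 and 164 TPM in that of LDAH-KO (0.12).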

How the data were processed

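RNA-seq libraries (poly(A), TruSeq Stranded) of 16 PM samples, 4 per group, were sequenced by the authors. According to their processing notes, STAR 2.4.2a, Trimmomatic and bcl2fastq 2.17.1.14 were used by the authors on GRCm38 (mm10), and HTSeq, Cuffdiff 2.2.1 and DESeq2 are also listed. The tool that made the TPM values and the annotation release were not given in the sources used here. The authors deposited the mean TPM of each group, and each column sums to 1000000 over the genes. A further line that holds this total was left out.

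Ratios used log2(mean TPM + 0.5) for genes with a mean of at least 1 TPM and no group at 0. Transcript lengths and coordinates came from GENCODE M21 and promoters from RefSeq. The calculation was tested on simulated data. Python 3.11.15, numpy 2.4.6, pandas 2.3.3 and matplotlib 3.10.9 were used. Tests across samples need values per sample and were not made, and depth is unknown.

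The members and lists were chosen with earlier results of these data known. Named from each list were genes past a factor of 1.5 and otherwise up to 4 with the largest ratios, from each marker list up to 4 of highest mean (genes added after their values were seen are marked in the text), and for each member the 3 genes nearest in pattern. Alternatives were another pseudocount, filter, scaling, factor and an adjustment for transcript length. The step of no pseudocount, the scale from protein-coding genes and the length adjustment were chosen after seeing the data.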

Additional observations from a re-analysis of the deposited data

How the results depend on the processing

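Only group means were analysed, so values without each replicate could not be computed. No paired analysis was possible because the table holds no value per sample. Ratios that moved by under 0.1 on the log2 scale were taken as unmoved, since the spread between samples was not analysed here. Of 126 alternative values for single genes, 106 did not move by that much and 20 did. The 106 include values that could not move. The filter settings only change which genes are kept, so a kept gene could neither move nor change sign under them. Median-ratio scaling shifted the median of all genes by 0.075 for the knockout comparison and by -0.002 for the transgenic one. Both shifts are under 0.1, so this scaling could hardly count as a move there. In LDAH-KO PM, 1 gene (*Lrp1*) passed a log2 ratio of -0.32 where none passed a factor of 1.5, and the median over the 6 genes was -0.011 after the length adjustment in place of -0.18. Between the control groups, the median of -0.055 became 0.13 under median-ratio scaling, 0.095 under quantile normalization and 0.24 after the length adjustment. Of the 6 genes, *Mertk* and *Gas6* changed sign there in all 3 settings. In LDAH-KO PM the ratio of *Mfge8* ranged from -0.27 to -0.15 over 9 settings, *Mertk* from -0.24 to -0.08 and *Lrp1* from -0.37 to -0.04, and *Axl* changed sign in 2, *Gas6* in 3 and *Pros1* in 3 of the 9. In LDAH-Tg PM no sign changed in 9 settings, with *Pros1* between -0.27 and -0.26. Scaling moved the median of all genes by 0.075 and 0.084 in LDAH-KO PM and by 0.175 and 0.176 between the control groups. The length adjustment changes the values by its construction. So does median-ratio scaling, which shifts every gene of a comparison by nearly the same amount. The cause of the other moves was not tested.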
